A study of Mus musculus with 3 samples.

Results

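The transcription factors that mark squamous and columnar epithelium were followed in single cells of the mouse anorectal junction. The 10 genes, Trp63, Sox2, Pitx1, Grhl3, Sox9, Klf5, Elf3, Cdx1, Cdx2 and Hnf4a, were taken by symbol from a table of 31053 genes. Distal colon and anus of C57Bl/6 mice were pooled from 5 animals per day, digested with trypsin, cleared of dead cells and made into 1 droplet library of 3' transcript ends per day. The day 0 mice were untreated. The day 7 and day 42 mice had drunk water with 3% dextran sulfate sodium (DSS), which injures the colon lining, for 6 days, and per the labels they were severely colitic at day 7 and recovered at day 42. All mice were bought at 6 weeks of age, and the labels name no genotype beyond the strain. The groups share strain, source and dissociation and differ in treatment and day. With 1 library per day there is no replicate check, and no test between days was possible. A level is the number of unique molecular identifiers (UMIs, 1 per captured transcript) of a gene as a share of all UMIs of the cells summed, given as CPM. Intervals are exact 95% intervals (Poisson for levels, Clopper-Pearson for shares of cells), and they cover counting error only.

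Stratified squamous epithelium is built from dividing basal cells whose identity depends on p63, the product of Trp63. Sox2 acts beside it in moist squamous linings such as that of the oesophagus, and Pitx1 is a homeobox factor of the hindlimb and other tissues. Columnar intestinal epithelium is specified by the caudal-type homeobox factors Cdx1 and Cdx2 and by the nuclear receptor Hnf4a, which drives absorptive genes. Grhl3 and Elf3 act late in epithelial differentiation, Klf5 in dividing epithelial cells of both kinds, and Sox9 in hair follicle stem cells and in intestinal crypts.

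The squamous class comprised all cells that the authors named keratinocytes, 3316, 9035 and 7970 on the 3 days in order, with median depths of 9168, 11481 and 6542 UMIs per cell. The columnar class comprised their absorptive, secretory and enteroendocrine colonocytes, 4306, 1062 and 1680 cells with 8916.5, 4017 and 5951.5 UMIs. The keratinocyte markers (Krt5, Krt14, Krt15, Dsg3, Dsc3, Krt1, Krt10, Krt13, Krt4) summed to between 17229 and 25751 CPM in the squamous and between 927 and 2523 CPM in the columnar class. The colonocyte markers (Epcam, Krt8, Krt20, Cdh17, Vil1, Lgals4, Slc26a3, Car1) summed to between 347 and 760 CPM and between 12260 and 20253 CPM, so each class was higher in its own markers, though neither set was at 0 in the other class. The exception was cluster 22, 279 of the 1062 columnar cells of day 7, with 9849 CPM of keratinocyte and 10728 CPM of colonocyte markers, and 324 CPM of Trp63, Sox2 and Pitx1 against 114 CPM of Cdx1, Cdx2 and Hnf4a. Its share in the squamous factor levels of columnar cells is given with them, and the gene lists were not recomputed without it. S100a8, a neutrophil gene, went from 4.21 to 597 and 47.8 CPM in the squamous class and from 0.273 to 824 and 34.6 CPM in the columnar class. Between 40 and 55 cell barcodes occurred in both of any 2 libraries, at most 0.471% of the smaller library.

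Trp63 lies at chr16:25683763-25892102, Sox2 at chr3:34650405-34652461, Pitx1 at chr13:55825051-55836192, Grhl3 at chr4:135541888-135573630, Sox9 at chr11:112782224-112787760, Klf5 at chr14:99298691-99315036, Elf3 at chr1:135253575-135258568, Cdx2 at chr5:147300805-147307270 and Hnf4a at chr2:163506808-163572910 (GRCm38, the mm10 build). All 10 genes are protein coding. Trp63, Sox2, Pitx1, Elf3 and Hnf4a overlap other annotated genes, Elf3 only on the opposite strand, and the effect of this on their counts was not tested.

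Promoter windows of 300 bases, from 250 before to 50 after the transcript start, were at hand in RefSeq (GRCm38.p6) for 5 of the 10 genes. Those of Sox2 (squamous), Hnf4a (columnar) and of Grhl3 and Elf3, which shared the keratinocyte cluster of their highest level, are printed here 5′ to 3′, with matches to the motifs searched in capitals.
Sox2 (chr3:34649745-34650044, plus strand): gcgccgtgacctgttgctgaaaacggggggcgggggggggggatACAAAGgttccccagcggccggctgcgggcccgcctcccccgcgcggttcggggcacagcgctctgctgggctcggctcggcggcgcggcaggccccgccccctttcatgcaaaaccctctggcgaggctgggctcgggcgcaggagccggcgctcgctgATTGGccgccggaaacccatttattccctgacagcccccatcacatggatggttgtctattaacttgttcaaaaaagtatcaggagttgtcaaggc
Grhl3 (chr4:135573583-135573882, minus strand): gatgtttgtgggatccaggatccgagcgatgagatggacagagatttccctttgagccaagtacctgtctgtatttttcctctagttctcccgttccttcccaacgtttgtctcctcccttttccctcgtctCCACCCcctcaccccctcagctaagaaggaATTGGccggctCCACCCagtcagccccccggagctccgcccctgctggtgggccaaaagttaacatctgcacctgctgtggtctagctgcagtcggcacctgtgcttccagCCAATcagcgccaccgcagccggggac
Elf3 (chr1:135258423-135258722, minus strand): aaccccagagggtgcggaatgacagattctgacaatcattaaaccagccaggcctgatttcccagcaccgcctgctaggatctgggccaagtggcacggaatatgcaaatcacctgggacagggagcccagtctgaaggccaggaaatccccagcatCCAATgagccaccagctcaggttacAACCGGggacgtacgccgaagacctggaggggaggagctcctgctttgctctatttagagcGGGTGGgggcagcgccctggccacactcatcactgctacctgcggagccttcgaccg
Hnf4a (chr2:163506607-163506906, plus strand): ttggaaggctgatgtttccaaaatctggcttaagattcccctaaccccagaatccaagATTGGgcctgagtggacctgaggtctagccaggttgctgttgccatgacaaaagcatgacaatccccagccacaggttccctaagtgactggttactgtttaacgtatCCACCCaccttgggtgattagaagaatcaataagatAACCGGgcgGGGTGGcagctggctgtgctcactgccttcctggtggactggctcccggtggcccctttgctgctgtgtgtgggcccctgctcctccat

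The motifs were searched on both strands. They were a SOX core (ACAAAG, in 18.7% of 32851 promoter windows), a CDX core (TTTATG, 11.9%), a Grainyhead core (AACCGG, 6.83%), a KLF core (CCACCC, 31.5%), an ETS core (GGAAGT, 23.8%), an HNF4 site (CAAAGTCCA, 0.475%), a TATA box (TATAAA, 13.6%) and a CCAAT box (CCAAT, 37.4%). The Sox2 window held 1 SOX core, and the Elf3 window and the Hnf4a window printed each held 1 Grainyhead core, the motif of the family to which Grhl3 belongs. The KLF core, which Klf5 and its relatives bind, occurred 2 times in the windows of Grhl3 and Hnf4a and 1 time in that of Elf3. All 4 held a CCAAT box, and none held the CDX, ETS or TATA letters or the HNF4 site. A second Hnf4a window, at chr2:163546905-163547204 and not printed, held 2 KLF cores and a CCAAT box and no Grainyhead core. These matches are letters in a window and were not tied to binding.

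At every day, Trp63, Sox2 and Pitx1 were more than 2-fold higher in squamous than in columnar cells, and Cdx1, Hnf4a and Elf3 were more than 2-fold lower. Squamous Trp63 levels on the 3 days in order were 312 CPM (interval 306 to 318), 198 CPM (196 to 201) and 198 CPM (194 to 202), against columnar levels of 15.3, 31.4 and 21.8 CPM. Pitx1 stood at 192, 289 and 331 CPM in squamous and at 12.1, 41.1 and 29.5 CPM in columnar cells. Sox2 stood at 59.8, 50.5 and 102 CPM in squamous and at 2.98, 8.42 and 8.41 CPM in columnar cells. No library of the squamous class came near the columnar range for these 3 genes. The log2 ratios of squamous over columnar, with 10 CPM added to both, were 3.67, 2.33 and 2.71 for Trp63, 3.19, 2.55 and 3.11 for Pitx1 and 2.43, 1.72 and 2.60 for Sox2 at days 0, 7 and 42.

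The columnar factors had the reverse pattern. Cdx1 stood at 174, 134 and 182 CPM in columnar cells and at 1.68, 0.670 and 0.705 CPM in squamous cells. Hnf4a stood at 154, 148 and 166 CPM in columnar cells and at 2.44, 0.779 and 0.826 CPM in squamous cells. For both, the squamous levels were below 3 CPM in every library. Elf3, an ETS-family factor, was present in both classes: it stood at 519, 612 and 459.8 CPM in columnar and at 33.6, 52.9 and 159 CPM in squamous cells, and its log2 ratio went from -3.60 at day 0 to -1.47 at day 42. Klf5 (squamous 341, 293 and 364 CPM, columnar 673, 458 and 650.5 CPM) and Sox9 (116, 63.4 and 94.3 CPM against 131, 97.3 and 131) stayed within 2-fold between the classes at each day. Grhl3 stood at 13.3, 10.3 and 19.8 CPM in squamous and at 1.66, 3.37 and 1.97 CPM in columnar cells, so it was higher in squamous cells at every day. With 10 CPM added, which is large beside these levels, its log2 ratios were 0.998, 0.61 and 1.32, and only that of day 42 was past 2-fold.

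Among all genes with at least 5 CPM in either class, 7.18%, 10.2% and 6.62% were past 2-fold higher in squamous cells on the 3 days, and 9.84%, 11.8% and 10.2% were past 2-fold lower. Of the members, 3 were higher and 3 lower at days 0 and 7 with 10 CPM added. At day 42, 4 were higher and 4 lower, when the ratios of Grhl3 and Cdx2 also passed that cutoff. The genes were picked as identity factors and the authors' clusters were made from the same cells, so these counts describe the classes.

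**Figure D1:**
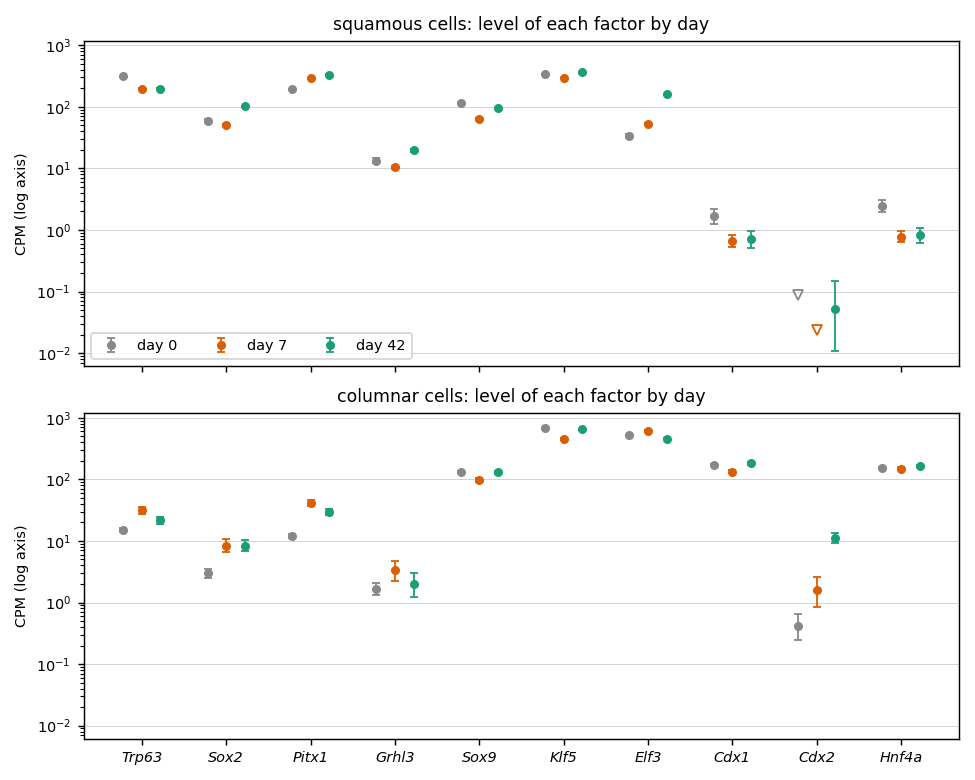
Level of each factor (CPM, log axis) in squamous (top) and columnar (bottom) cells at day 0, day 7 and day 42, with exact Poisson 95% intervals. Open triangles stand at 3 UMIs where no UMI was found. Trp63, Sox2 and Pitx1 lie high on top and low below, Cdx1 and Hnf4a the reverse, and Klf5 is high in both panels.

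The keratinocyte clusters differed in which squamous factors they carried. Trp63 was present in all of them, at day 0 from 477 CPM in cluster 17 and 451 in cluster 1 down to 89.0 CPM in cluster 5. Cluster 17 carried hair follicle markers (Lhx2 at 237 CPM over all days, Krt17 at 7492 CPM), and cluster 1 carried Krt15 at 2082 and Krt7 at 718 CPM. The intervals of clusters 17 and 1 overlapped at day 0, as did those of clusters 3 (345 CPM) and 8 (328 CPM), while cluster 9 (409 CPM) stood apart between them. Cluster 4, with the suprabasal keratins Krt1 at 7279 and Krt10 at 10138 CPM, had 229 CPM of Trp63. Cluster 5, which carried Krt13 at 9503, Krt7 at 2262 and Krt19 at 2468 CPM, had a low Trp63 level at each day (89.0, 67.1 and 88.5 CPM).

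Sox2 was unevenly spread over these clusters. It stood at 111, 80.7 and 109.7 CPM in cluster 1, 115, 67.5 and 122 CPM in cluster 3 (which carried the division gene Mki67 at 308 CPM), and 105, 65.3 and 107 CPM in cluster 5. In cluster 17 it stood at 7.33 and 0.905 CPM at days 0 and 7, with no UMI at day 42. In cluster 13, where the sebaceous gene Scd1 reached 6649 CPM, it stood at 3.801, 6.56 and 3.71 CPM. In cluster 8, with the hair follicle and gland keratin gene Krt79 at 3123 CPM, it stood at 9.74, 10.6 and 16.2 CPM. Trp63 in these 3 clusters was 148 CPM or more at every day, so Sox2 was low there where Trp63 was not.

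Pitx1 was broader than Sox2. It was highest in cluster 3 at 349.9, 404 and 429 CPM and lowest in cluster 17 at 33.0, 38.0 and 39.9 CPM. In cluster 13 it stood at 130.1, 159.5 and 120.5 CPM. Outside the epithelium, fibroblasts had 220.0, 104 and 217 CPM of Pitx1 and 51.7%, 35.4% and 38.3% of them had a UMI, so among these tissues Pitx1 did not mark squamous cells alone. Muscle-like cells, 296 of them at day 0, had 402 CPM.

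Sox9 was highest at day 0 in the 3 keratinocyte clusters with the least Sox2. It led in cluster 17 at 657, 463 and 677 CPM, followed by cluster 8 at 303, 199.9 and 247 CPM, and stood at 23.3, 31.5 and 21.7 CPM in the Krt10-rich cluster 4. In columnar cluster 7, which carried Mki67 at 191 CPM, Sox9 stood at 151 CPM at day 0 and 153 CPM at day 42, above columnar cluster 2 at 99.997 and 110.01 CPM.

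Klf5, a zinc-finger factor of dividing epithelium, was high in most clusters of both classes and low in 2 of them. It stood at 31.3, 46.7 and 29.7 CPM in cluster 13 and at 70.6, 54.7 and 39.9 CPM in cluster 17, against 462, 435 and 447 CPM in cluster 4. In the columnar clusters 2 and 7 it stood at 563 and 728 CPM at day 0.

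Grhl3 and Elf3 shared cluster 5 as their highest keratinocyte cluster at day 0. Grhl3, a factor of the epidermal barrier, stood there at 71.0, 48.2 and 37.9 CPM, and at 23.0, 21.8 and 22.4 CPM in cluster 4, the next highest. Elf3 stood in cluster 5 at 355, 510.5 and 397 CPM, and in the other keratinocyte clusters at 80.8 CPM or less, except in cluster 12 at day 42 (263 CPM from 55 UMIs in 152 cells of low depth). At day 0 the Elf3 level of cluster 5 (interval 324 to 389) lay below that of columnar cluster 7 at 498 CPM (489 to 506) and above that of enteroendocrine cluster 24 at 132 CPM. Krt19 and Krt7, keratin genes of simple and transitional epithelia, were also high in cluster 5, and Krt8, a defining columnar keratin gene, was low there at 61.9 CPM against 7318 CPM in columnar cluster 2.

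**Figure D2:**
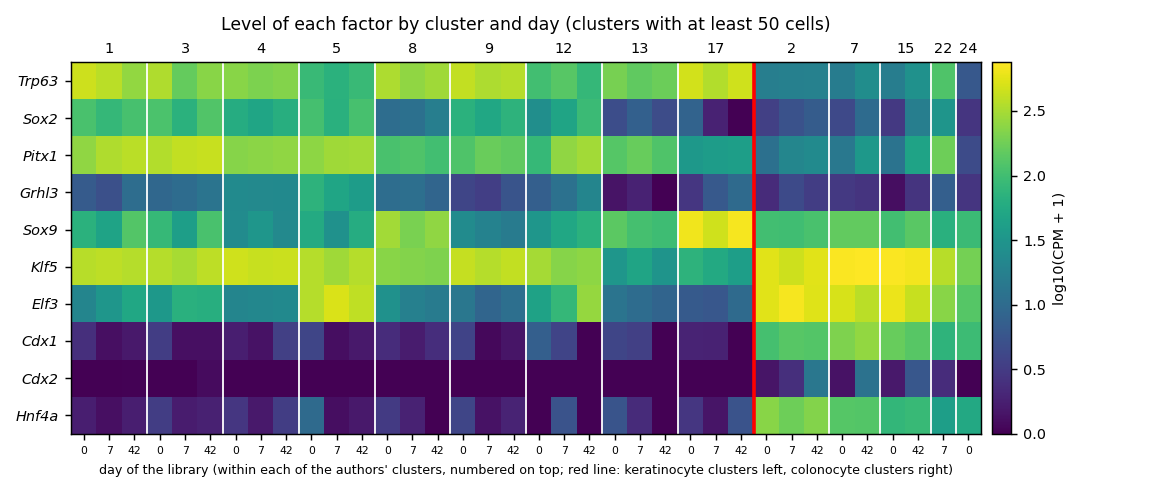
Level of each factor, as log10 of CPM plus 1, in each of the authors' clusters with at least 50 cells and in each library. Keratinocyte clusters are left of the red line and colonocyte clusters right of it, and the day stands under each column. Sox2 is dark in clusters 8, 13 and 17 where Sox9 is bright, Elf3 is bright in keratinocyte cluster 5, and Cdx2 is visible in columnar clusters at day 42.

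Between days in the squamous class, Elf3 was the only member past 2-fold with 10 CPM added. Its 33.6, 52.9 and 159 CPM gave log2 ratios of 1.96 for day 42 against day 0 and 1.43 against day 7. Of all genes with at least 5 CPM, 2.31% were past 2-fold higher and 1.99% lower at day 42 against day 0, and 1.73% and 1.43% against day 7. The cells of cluster 5 made up 2.62%, 1.79% and 27.0% of squamous cells on the 3 days and held 41.6%, 25.9% and 79.9% of the squamous Elf3 UMIs. Within cluster 5 the day 42 to day 0 log2 ratio was 0.16, in cluster 1 it was 1.05 (19.6 to 51.2 CPM) and in cluster 3 it was 0.75. With equal weight to each cluster the class ratio was 0.58 and no longer past 2-fold. Of the 9 clusters, 6 had a ratio above 0. How much of the class difference came with the larger share of cluster 5 was not tested beyond that weighting.

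Trp63 was lower in squamous cells at both later days, by a log2 ratio of -0.63 each time, without reaching 2-fold. It was lower than at day 0 in 9 of 9 clusters at day 42 and in 8 of 9 at day 7. The widest within-cluster differences were in cluster 3 at day 7 (345 to 157 CPM, log2 ratio -1.09) and in cluster 1 at day 42 (451 to 253 CPM, -0.81), and the ratios of clusters 4, 5 and 17 at day 42 were -0.07, -0.01 and -0.03. With equal weight to each cluster the class ratios were -0.36 and -0.27. The share of squamous cells with a Trp63 UMI was 86.1%, 71.4% and 64.9%, and 28.9%, 18.7% and 19.3% once each cell was thinned to 1000 UMIs. At day 7 cluster 12, with a median of 1672.5 UMIs per cell, made up 18.5% of squamous cells, and leaving it out moved the squamous ratios of the members by at most 0.02 on the log2 scale.

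Pitx1 moved the other way. Its squamous log2 ratios were 0.57 at day 7 and 0.76 at day 42 against day 0, within 2-fold, and it was higher at day 7 in 9 of 9 clusters and at day 42 in 7 of 9. Sox2 was lower at day 7 than at day 42 in 7 of 9 clusters, with a class ratio of 0.89 for day 42 against day 7. Sox9 was lower at day 7 than at day 0 in 7 of 9 clusters, with a class ratio of -0.78. In cluster 3 Sox9 stood at 83.4, 40.3 and 111 CPM, so its day 42 to day 7 log2 ratio there was 1.27, and in cluster 1 it was 1.29. Klf5 had class ratios of -0.21, 0.09 and 0.30 in the 3 comparisons. Of all genes, 1.15% were past 2-fold higher and 0.971% lower in squamous cells at day 7 against day 0, and none of the 7 members tested was.

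**Figure D3:**
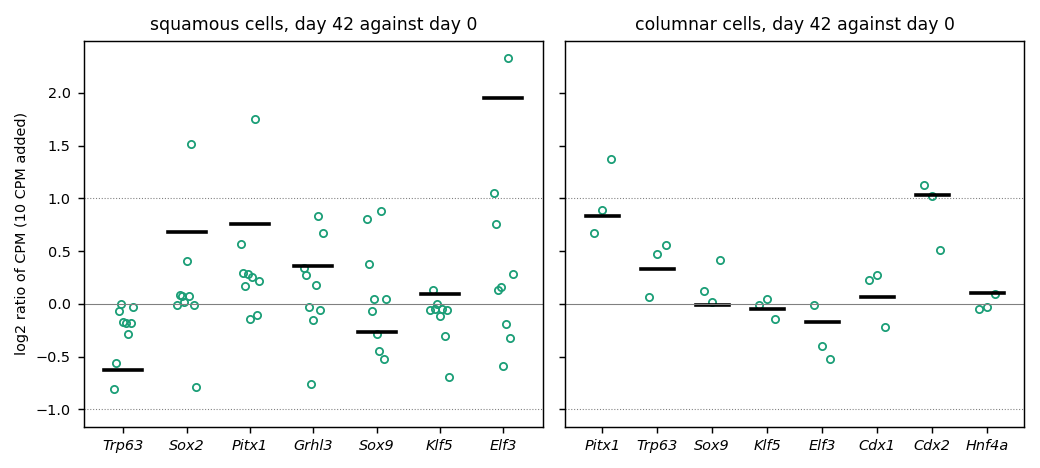
Log2 ratio of day 42 over day 0 (10 CPM added) for the whole class (black bars) and within single clusters that had 50 cells or more in each of the libraries compared (open circles), in squamous (left) and columnar (right) cells; dotted lines mark 2-fold. The squamous Elf3 bar at 1.96 lies above all cluster circles but that of cluster 12, while the 3 Cdx2 circles lie above 0.

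Within the columnar class Hnf4a and Cdx1 were highest in different clusters. Hnf4a was highest in cluster 2, which carried the surface keratin gene Krt20 at 475 CPM, with 229.8, 172 and 221 CPM. It stood at 130.2 and 128 CPM in the dividing cluster 7 and at 79.1 and 84.8 CPM in the Muc2-rich secretory cluster 15 at days 0 and 42. Cdx1 was highest in cluster 7 at 209 and 256 CPM, with 106, 133 and 126 CPM in cluster 2 and 159.6 and 135 CPM in cluster 15. At day 0 the intervals of neighbouring clusters in either order did not overlap, except that the 78 enteroendocrine cells of cluster 24 overlapped cluster 15 for Hnf4a and cluster 2 for Cdx1. At day 7 only clusters 2 and 22 had at least 50 columnar cells.

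Across days both factors stayed within 2-fold in columnar cells, with log2 ratios for Hnf4a of -0.06 at day 7 and 0.10 at day 42 and for Cdx1 of -0.35 and 0.06, all against day 0. In cluster 2 alone, Hnf4a had a ratio of -0.40 and Cdx1 of 0.30 at day 7. The Cdx1 ratio at day 7 thus changed sign with equal weight to clusters, which for this pair of days means cluster 2 alone. Klf5 was at 458 CPM at day 7 against 673 at day 0 (log2 ratio -0.55) and Sox9 at 97.3 against 131 (-0.40). Cluster 7, where both were high, was 42.0%, 3.11% and 24.5% of columnar cells on the 3 days, and within cluster 2 the day 7 ratios were -0.29 and -0.04.

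Cdx2 stood apart from Cdx1. It had 18 UMIs in the 4306 columnar cells of day 0 (0.410 CPM, 0.243 to 0.648), 14 in the 1062 cells of day 7 (1.57 CPM, 0.859 to 2.64) and 126 in the 1680 cells of day 42 (11.3 CPM, 9.39 to 13.4). The share of columnar cells with a Cdx2 UMI was 0.418%, 1.04% and 6.37%, and 0.0235%, 0.0972% and 1.04% after thinning. The day 42 level was above the others in each cluster that could be compared: 0.471, 1.47 and 12.9 CPM in cluster 2, 0.370 and 11.1 CPM in cluster 7, and 0.569 and 5.04 CPM in cluster 15 (days 0 and 42, the latter from 2 and 6 UMIs). Squamous cells had 0, 0 and 3 Cdx2 UMIs, where a count of 0 allows up to 0.0905% of cells with a UMI at day 0 and 0.0332% at day 7, taken as 3 cells of the total. The exact intervals reach 0.111% and 0.0408%.

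The columnar log2 ratio of Cdx2 at day 42 against day 0 was 1.03 with 10 CPM added. Over 10 alternatives it ranged from 0.84 (mean of CPM per cell) to 3.12 (1 CPM added) and was past 2-fold in 6. Of all genes in that comparison, 1.16% were past 2-fold higher and 0.361% lower. With 10 CPM added, Cdx2 was the only member past 2-fold. Against day 7 the ratio was 0.88, with 1.04% of all genes higher and 1.35% lower past 2-fold and no member among them. In 2 of 10 alternatives each, the ratios of Cdx2 (0.77 to 2.25), Pitx1 (-1.22 to 0.13) and Trp63 (-1.30 to 0.01) for that comparison were past 2-fold. Cdx2 was 1 of 7 genes, of 7812 with at least 10 CPM in day 42 columnar cells, that had at most 2 CPM at both earlier days. The others, named here after their values were seen, were the immunoglobulin genes Igkc, Igha and Jchain, the antimicrobial gene Ang4, Krt75 and Khdc1a. Of these, Igkc (544 CPM), Igha (144), Jchain (82.0) and Krt75 (10.2) were also present in squamous cells of that library, while Ang4 (2.08 CPM), Khdc1a (0.0688) and Cdx2 (0.0516) were near 0 there. The library and the day cannot be told apart.

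Squamous factors were found at low levels in the columnar class, with Trp63 and Pitx1 highest at day 7 and Sox2 alike at days 7 and 42 (8.42 and 8.41 CPM). Columnar Pitx1 went from 12.1 CPM (11.1 to 13.2) to 41.1 CPM (37.0 to 45.5) and 29.5 CPM (26.4 to 32.9), with log2 ratios of 1.21 at day 7 and 0.84 at day 42. With 10 CPM added, it was the only member past 2-fold at day 7, where 3.37% of all genes were past 2-fold higher and 2.03% lower. With 1 CPM added, the day 7 ratio of columnar Sox2 was 1.24. Columnar Trp63 went from 15.3 to 31.4 and 21.8 CPM, with ratios of 0.71 and 0.33. Cluster 22, with 279 cells at day 7 and at most 5 at the other days, was 26.3% of columnar cells and 8.69% of columnar UMIs of day 7. It held 36.6% of the columnar Pitx1 UMIs and 33.2% of the Trp63 UMIs of that day. The 33 cells of cluster 7, 3.11% of columnar cells and 11.4% of columnar UMIs of that day, held another 23.5% and 23.2%. Cluster 22 carried Krt14 at 5421 CPM and S100a8 at 4354 CPM beside Lgals4, a colonocyte gene, at 4360 CPM. It had a median of 2528 UMIs per cell. Without cluster 22 the day 7 ratios were 0.80 for Pitx1 and 0.38 for Trp63, and within cluster 2 they were 0.55 and 0.05. At day 42 against day 0 the Pitx1 ratios were 0.68 in cluster 2, 0.89 in cluster 7 and 1.37 in cluster 15, the Trp63 ratios 0.07, 0.47 and 0.56, and the Sox2 ratios 0.34, 0.51 and 1.11, all above 0. In cluster 2 the day 42 over day 7 ratios of Trp63, Sox2 and Pitx1 were 0.01, 0.15 and 0.13. The intervals of these days overlapped for all 3 factors.

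Cells that should lack Trp63 also had it at low levels. T cells had 5.43, 27.1 and 15.05 CPM (from 3, 9 and 3 UMIs) and endothelial cells 11.9, 28.8 and 34.9 CPM, and on each day the intervals of both overlapped that of columnar cells. At day 7 neutrophils had 14.3 CPM (10.9 to 18.4) and macrophages 6.79 CPM (3.10 to 12.9), both below the columnar interval. Fibroblasts at days 0 and 42, with 32.7 CPM (28.5 to 37.4) and 49.6 CPM (34.4 to 69.3), and lymphatic cells, with 49.0 CPM (23.5 to 90.0) and 109 CPM (65.9 to 171), were above the columnar intervals of those days. Endothelial cells had 28.5, 24.7 and 48.3 CPM of Pitx1. Their interval lay above the columnar one at day 0, below it at day 7 and overlapped it at day 42. For every 1000 UMIs of the basal keratin genes Krt5 and Krt14, squamous cells had 44.9, 15.5 and 10.5 Trp63 UMIs and columnar cells 38.7, 18.8 and 14.2. Fibroblasts had 44.4, 25.8 and 15.4. These 3 had their highest value at day 0 and their lowest at day 42, while T cells had 11.3, 33.1 and 13.0 (from 3, 9 and 3 Trp63 UMIs) and lymphatic cells 36.6, 22.1 and 42.6 (from 10, 22 and 19). The summed keratinocyte markers in columnar cells went from 927 to 2523 and 2041 CPM over the 3 days.

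**Figure D4:**
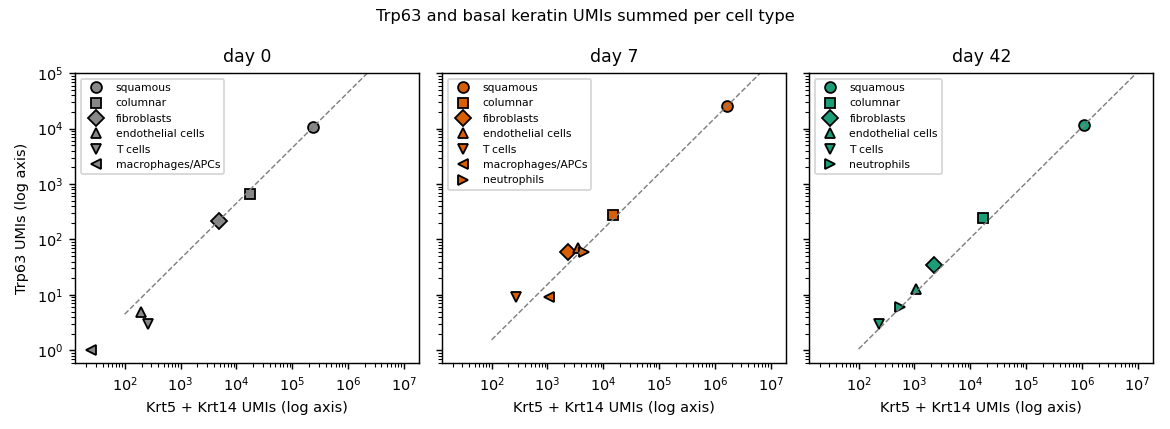
Trp63 UMIs against Krt5 plus Krt14 UMIs (both axes log), summed per cell type in each library with at least 50 cells; the dashed line is the ratio in squamous cells of that library. Columnar cells lie at 38.7, 18.8 and 14.2 Trp63 UMIs per 1000 keratin UMIs and fibroblasts at 44.4, 25.8 and 15.4, against 44.9, 15.5 and 10.5 on the line.

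Single cells with a squamous and a columnar factor were then counted. A cell was counted if it had at least 1 UMI of Trp63, Sox2 or Pitx1 and at least 1 of Cdx1, Cdx2 or Hnf4a. In the squamous class these were 85 of 3316 cells (2.56%, interval 2.05 to 3.16), then 103 of 9035 (1.14%, 0.931 to 1.38) and last 68 of 7970 (0.853%, 0.663 to 1.08). In the columnar class there were 300 of 4306 (6.97%, 6.22 to 7.77), 126 of 1062 (11.9%, 9.98 to 13.96) and 153 of 1680 (9.11%, 7.77 to 10.6). The squamous share was highest at day 0. The columnar intervals of days 7 and 42 overlapped. After thinning, the columnar intervals of days 0, 7 and 42 (0.197 to 0.581, 0.274 to 1.40 and 0.358 to 1.28) all overlapped, so these days could not be ordered. With all UMIs the intervals of the 2 classes overlapped in no library. Cells with over 20% mitochondrial UMIs were 32.1%, 14.9% and 13.0% of the libraries, and without them and cells under 1000 UMIs or 500 genes the columnar share was 10.5%, 14.6% and 11.96%. Thinned, they overlapped at day 0 (squamous 0.0332 to 0.312, columnar 0.197 to 0.581).

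In squamous cells this share was set by the columnar factors, which 2.74%, 1.43% and 0.878% of cells had. Fibroblasts, which should lack them, had a columnar factor UMI in 2.30%, 1.90% and 0.901% of cells at median depths of 4366, 5015 and 2645.5 UMIs. The squamous values lay within the fibroblast intervals at each day, at a higher depth. Neutrophils at day 7, with a median of 2585 UMIs, had 0.463% (0.186 to 0.951), below the squamous 1.43%. The part of free RNA in these shares was not tested. After thinning to 1000 UMIs, which left out 34, 468 and 91 squamous cells, 0.122%, 0.0934% and 0.0635% of squamous cells had both kinds, or 4, 8 and 5 cells.

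In columnar cells 7.83%, 23.0% and 10.7% had a squamous factor UMI, against 1.83%, 4.24% and 5.79% of T cells and 4%, 13.5% and 12.3% of endothelial cells. After thinning, which left out 49, 33 and 144 columnar cells, the columnar shares were 1.88%, 8.16% and 3.26%, the T cell shares 1.03%, 2.78% and 5.56%, and the endothelial shares 2.08%, 2.01% and 2.88%. Only at day 7 did the thinned columnar share lie above the endothelial interval (0.740 to 4.32), and cluster 22, where 49.8% of cells had a squamous factor, belongs to that day. Without cluster 22 the day 7 share was 13.4% with all UMIs and 2.74% thinned, inside that interval, and 85 of 783 cells (10.9%) had both kinds. Both kinds together were in 0.352%, 0.680% and 0.716% of thinned columnar cells, or 15, 7 and 11 cells.

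The columnar cells with both kinds differed, in 3 further measures, from those with columnar factors alone. Their median depth was 17940.5, 12398.5 and 12325 UMIs, against 11032.5, 9598 and 7203.5. Keratinocyte marker genes made up a median of 0.360%, 0.605% and 0.495% of their UMIs, against 0.00760%, 0.0386% and 0.0334%. Of them 67.0%, 16.7% and 49.7% were among the 5% of cells of their library with the highest Scrublet doublet score, against 2.90%, 1.48% and 3.56%. The day 7 values pool unlike clusters: among cells with both kinds the keratinocyte marker share was 0.218% in cluster 2 and 1.06% in cluster 22, and 26.2% and 2.44% of them were in the top 5%. Without that 5% of cells the columnar share was 2.49%, 10.3% and 5.00%. Scrublet's own threshold marked 436, 0 and 292 cells in all, so it gave no call at day 7. Of the cells with both kinds, 32.3%, 49.2% and 39.2% had just 1 UMI of a squamous factor.

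By cluster, the share of cells with both kinds at day 0 was 10.7% in the deeply covered cluster 7, 4.24% in cluster 2 and 4.80% in cluster 15. At day 42 it was 17.2%, 5.88% and 10.1%. At day 7 it was 9.25% in cluster 2 (65 of 703 cells, 7.21 to 11.6) and 14.7% in cluster 22. Among pairs of single factors in columnar cells, Trp63 with Hnf4a (4.30%, 5.37% and 4.70%) and Pitx1 with Hnf4a (3.90%, 6.12% and 5.24%) were more frequent than Sox2 with Hnf4a (1.44%, 2.35% and 2.14%). Cdx2 with Trp63 occurred in 2, 2 and 14 cells. Within their own side, 26.9%, 29.1% and 26.5% of squamous cells had all 3 squamous factors, while all 3 columnar factors were found together in 0.302%, 0.847% and 3.57% of columnar cells, where Cdx2 was rare.

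**Figure D5:**
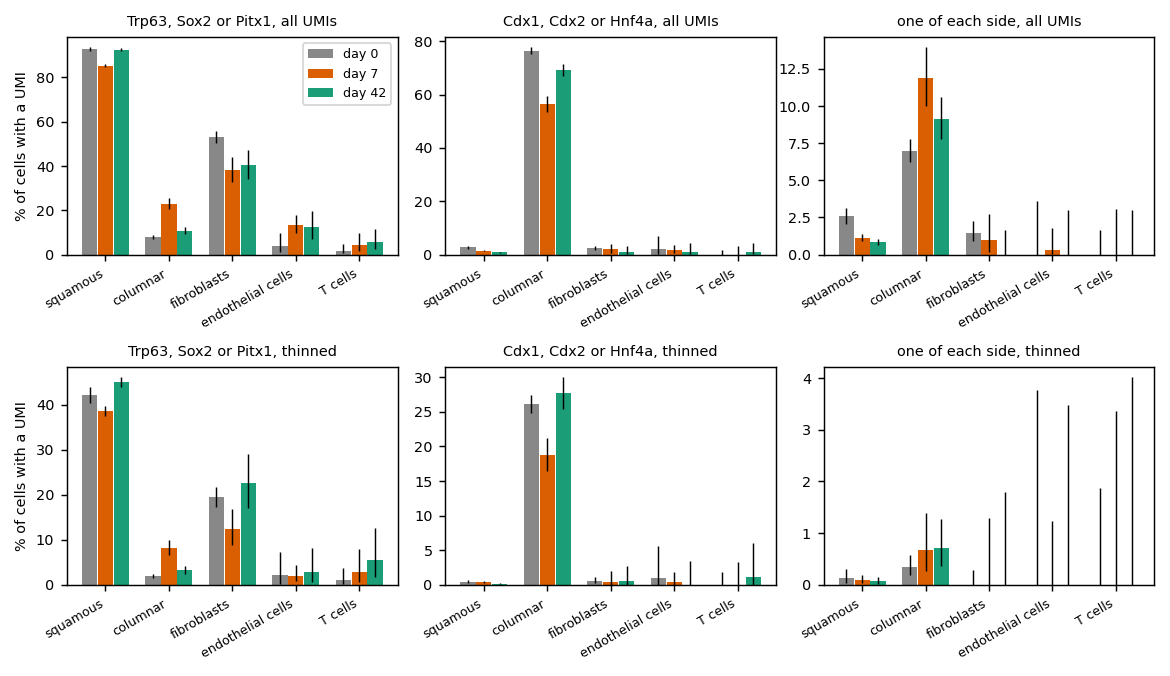
Percent of cells with at least 1 UMI of a squamous factor (left), a columnar factor (middle) or both kinds (right), by cell type and day, with all UMIs (top) and with each cell thinned to 1000 UMIs (bottom); lines are exact 95% intervals. The columnar share with both kinds is between 6.97% and 11.9% on top and between 0.352% and 0.716% at the bottom.

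Other factors and target genes of the same programmes were followed in lists that leave out the 10 members. Of 28 other squamous factors measured at day 0, 17 were past 2-fold higher and 4 lower in squamous cells (median log2 ratio 1.63). Barx2, a homeobox factor, was highest at 3.01 and Gata3, a zinc-finger factor of epidermis and hair follicle, next at 2.97, while Hoxa13, a factor of the hindgut and cloaca, was lowest at -1.71. Of 21 other columnar factors, 16 were lower in squamous cells and none higher (median -1.25). Of all genes in that comparison, 7.18% were past 2-fold higher and 9.84% lower, as given above.

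In squamous cells at day 7 none of 27 other squamous factors was past 2-fold (median -0.34; Hes1, Prdm1 and Klf4 are in this list and in that of the other columnar factors), against 1.15% of all genes higher and 0.971% lower. At day 42 against day 0, Hes1, a Notch target, was higher at 1.18 and 4 of 28 were lower, among them Gata3 at -1.86 (108 to 22.6 CPM) and Tfap2b at -1.61 (43.5 to 7.52 CPM), against 2.31% of all genes higher and 1.99% lower. Of the 18 squamous target genes, Igfbp3 (3.09) and Krt14 (1.62) were higher and Dsc3 (-1.31) lower at that day, and at day 7 Krt14 (1.05) and Igfbp3 (1.03) were higher and Krt15 (-1.85) lower. Among 12 columnar target genes measured in squamous cells at day 42, Krt20 (2.13) and Ceacam1 (1.61) were higher. Krt20 stood at 414 CPM in cluster 5, the Elf3-rich cluster.

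In columnar cells at day 7, 8 of 18 columnar target genes were past 2-fold higher and 1 lower, against 3.37% and 2.03% of all genes (median 0.90, against -0.15 over all genes), led by Krt20 (2.35) and by Car1 (1.62), a carbonic anhydrase of surface colonocytes, with Fabp2 at -1.05. Of 23 other columnar factors, 2 were higher, Creb3l3 (1.27) and the bile acid receptor Nr1h4 (1.14), and 4 were lower, among them the secretory factor Atoh1 (-1.57, 25.8 to 2.02 CPM) and Hes1 (-1.21). Krt14 (2.11) and Krt5 (1.84) led 3 of 18 squamous target genes that were higher there. At day 42 against day 0 none of 22 other columnar factors and none of 18 other squamous factors was past 2-fold in columnar cells, while 4 of 17 columnar target genes were higher, against 1.16% of all genes. So were 3 of 17 squamous target genes, led by Igfbp3 (2.25) and Krt14 (2.05). Cluster 2 was 45.0% of columnar cells at day 0 and 66.2% at day 7; the part of that mix in these lists was not tested.

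The genes with the most similar pattern were sought over 36 combinations of cluster and day with at least 50 cells, among 10067 genes, by Pearson r of log2(CPM + 10). Points of 1 day share a library and clusters differ in depth, so r is a description. Nearest to Trp63 were Qk (0.95), Meis1 (0.95) and Def6 (0.94), to Sox2 Meis2 (0.91), Wnt16 (0.91) and Chit1 (0.89), and to Pitx1 B4galnt1 (0.91), Meis2 (0.88) and Wnt4 (0.88). Grhl3 was nearest to Rab10 (0.92) and to Evpl (0.91) and Ppl (0.90), which encode the cornified envelope proteins envoplakin and periplakin. Sox9 was nearest to Aplp2 (0.92), Ucp2 (0.88) and Sardh (0.83), and Klf5 to Klf3 (0.92), Ano1 (0.87) and Ckmt1 (0.84).

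Elf3 was nearest to Ceacam1 (0.98), the tight junction gene Cldn7 (0.96) and Tspan15 (0.96). Cdx1 was nearest to Tstd1 (0.99), Smpd3 (0.98) and Irf8 (0.98), and Hnf4a to Smim24 (0.99), Ugt2b34 (0.99) and Myo1a (0.99), the brush border myosin gene. Cdx2, which never reached 20 CPM in a cluster, was nearest to Khdc1a (0.91), followed by Ddah1 (0.78). Among the members, Cdx1 with Hnf4a (0.96) and Sox2 with Pitx1 (0.85) were the most alike, Trp63 was most unlike Elf3 (-0.86), and Sox2 and Sox9 ran apart (-0.63).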

How the data were processed

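The data were 3 single-cell libraries, 1 per day. The authors deposited whole-number counts (UMIs) per gene and cell, not normalized, for 31053 genes and 37080 cells, with a cell table of day, cluster (29) and cell type (14 names). Per the submitters' processing notes reads were processed with Cell Ranger 3.0.2 on mm10. The deposited size factors are a ratio, proportional to the cells' totals, and only served to check cell order. The filter on cells is not given in the sources used here.

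Counts were summed per class or cluster and library. Levels were compared as the log2 ratio of CPM with 10 CPM added, over genes with at least 5 CPM in either sum, and a log2 ratio of 1 or more was called past 2-fold. Clusters with at least 50 cells were used, and cells were thinned to 1000 UMIs where stated. The tools were Python 3.11.15, numpy 2.4.6, scipy 1.17.1, pandas 2.3.3 and scanpy 1.11.5 (Scrublet, 30 components). The steps were tested on simulated data. Members, gene lists and alternatives were chosen with earlier results of these data known. Named genes were the members, the 3 genes most like each, and at most the 2 highest and 2 lowest list genes per comparison, with marker genes for the labels; genes with a day pattern like that of Cdx2 were named after their values were seen. Positions and overlaps are from GENCODE M21, not known to be the authors' annotation.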

Additional observations from a re-analysis of the deposited data

Results flagged for a closer look

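Trp63 was picked out because its level moved in opposite directions in the 2 epithelial classes at day 7 against day 0. Its log2 ratio was -0.63 in the squamous and 0.71 in the columnar class, and within each class the counting intervals of the 2 days did not overlap. With 1 library per day the difference between the classes was not tested. Without cluster 22 the columnar ratio was 0.38, and within columnar cluster 2 it was 0.05. The keratinocyte markers in columnar cells moved with it, from 927 to 2523 CPM, and their part in the Trp63 ratio was not tested.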

How the results depend on the processing

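No paired analysis was possible because each day is 1 library, and leaving out a replicate could not be done either. Of 470 member ratios recomputed under the alternatives, 441 kept their sign and 175 moved beyond their counting interval. None of the 4 ratios past 2-fold changed sign. With 1 CPM added in place of 10, the number of all genes past 2-fold higher and lower in squamous cells was 307 and 410 (day 7 against day 0), 474 and 622 (day 42 against day 0) and 404 and 343 (day 42 against day 7), and in columnar cells 668 and 868, 249 and 177, and 359 and 328. With median-of-ratios size factors, 135 were lower in columnar cells at day 7 against 206; that scaling moved the median of all genes by 0.15 there and by 0.14 in squamous cells at day 42.

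The share of cells with both kinds of factor on the 3 days moved as follows. Thinned, it was 0.122%, 0.0934% and 0.0635% of squamous, 0.352%, 0.680% and 0.716% of columnar and 0.252%, 0.156% and 0.170% of all epithelial cells. Thinned and without cluster 22, it was 0.522% of columnar cells at day 7 (4 cells). With at least 2 UMIs on each side it was 0.663%, 0.199% and 0.113%, 4.09%, 3.95% and 4.35%, and 2.60%, 0.594% and 0.850%. Without Sox2 and Pitx1 it was 0.652% of squamous cells at day 42, 5.202%, 7.06% and 6.13% of columnar and 3.94%, 1.59% and 1.61% of epithelial cells. Without the top 5% by Scrublet score it was 0.658% of squamous cells at day 42, 2.49% and 5.00% of columnar and 2.32% and 1.39% of epithelial cells at days 0 and 42. Keeping cells of 1000 UMIs and 500 genes or more with no more than 20% of UMIs from mitochondria, it was 10.5%, 14.6% and 11.96% of columnar cells and 6.07% of epithelial cells at day 0. Apart from thinning, the stricter count and fewer genes, which lower a share by construction, the cause was not tested.

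The squamous Elf3 ratios of 1.96 and 1.43 were 0.58 and 0.14 with equal weight to clusters. Both stayed past 2-fold in 9 of 10 alternatives. The columnar Pitx1 ratio of 1.21 ranged from 0.55 to 1.87 (past 2-fold in 8 of 10) and the columnar Cdx2 ratio of 1.03 from 0.84 to 3.12 (6 of 10). Leaving out cluster 12 or 22 was chosen after seeing the data. Cdx2 rests on 18 and 14 columnar UMIs on days 0 and 7.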
